A study of Homo sapiens with 6 samples.

Results

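Integrins are the receptors through which a cell holds on to its matrix. The genes described here are 34 members of that adhesion machinery, chosen by name with earlier results of these data known. They are 17 integrin alpha chains, 9 beta and beta-like chains, 5 integrin-activating talins and kindlins, and the 3 adaptors VCL, PXN and ILK. Of the 34 genes, 33 had at least 1 array probe set assigned to that gene alone, among 18132 genes measured in the same way. The exception was ITGB6, whose 2 probe sets carry a further gene symbol and were not analysed here. Expression was measured in LX-2, an established human hepatic stellate cell line, grown in medium with serum and then kept without serum for 12 h. The BMP9 group then received 50 ng/ml recombinant human BMP9 for 24 h and the control group received 0 ng/ml for the same time, with 3 Affymetrix arrays per group. BMP9, the product of GDF2, is a TGF-beta family ligand that signals to the nucleus through SMAD proteins. The labels name the 3 samples of a group as biological replicates without saying whether they were separate cultures, and the p-values cover only the spread among them.

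An integrin is a pair of an alpha and a beta chain, and the pair sets what the cell can bind: fibronectin and vitronectin through the RGD peptide, collagens, laminins, or receptors on other cells. Talins and kindlins bind the beta chain's tail and switch the receptor on, and adaptors such as vinculin, paxillin and integrin-linked kinase tie it to actin and to signalling. In hepatic stellate cells, integrins anchor the cell in the scar it makes, and those that contain the alpha v chain (ITGAV) release active TGF-beta from its latent form.

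Values are log2 expression per probe set, so a difference of 1 is a doubling. A gene is represented by its probe set with the highest mean over the 6 arrays unless another is named, and a difference is BMP9 minus control with the moderated standard error (SE) of limma, a linear model that shares variance between genes. Called means an adjusted p under 0.05 (limma, Benjamini-Hochberg over all genes or all probe sets tested). In bulk RNA such as this, fewer cells that express a gene and less RNA per cell cannot be told apart.

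The arrays were alike in level, with medians from 3.55 to 3.57, and Pearson's r across genes was 0.993 to 0.995 for arrays of the same group and 0.991 to 0.993 for arrays of different groups. The BMP targets SMAD6 and ID3 rose by 3.01 and 1.63 (limma adjusted p = 3.97e-07 and 8.65e-05). Of the stellate cell markers 15 of 16 were measured and 0 were called. VIM was at 11.6 in control and 11.2 after BMP9, COL1A1 at 9.73 and 9.79, and ACTA2 at 3.90 and 4.04. The array's own controls were dimmer on the BMP9 arrays: hybridisation controls lay at 9.87 to 10.0 against 10.1 to 10.2 in control, and poly-A controls at 5.39 to 5.83 against 6.09 to 6.22. The 3′ minus 5′ difference of the ACTB control was -4.45 to -4.32 with BMP9 against -4.28 to -4.08, and that of GAPDH overlapped between the groups. Their part in the results below was not tested beyond the scaling given beside them. Background probe sets ranged from 1.58 to 10.1 with the GC content of their probes, which is not known here for the members, so no member can be called above or below background.

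Under BMP9 the integrin and adhesion genes as a group stayed close to control. Of the 33 measured members 0 rose and 1 fell, the leukocyte beta chain ITGB2, which is 3.03% of them against 0.684% called over all genes (0.452% called lower). The members' median difference was 0.028, beside 0.014 for all genes, and their median absolute difference was 0.074, beside 0.084. The difference was positive in 21 members and negative in 12, beside 9915 positive and 8217 negative over all genes. For 32 of the 33 the 95% interval lay within 1.5-fold in either direction, as it did for 97.7% of all genes. Groups did not overlap in 9 members, or 27.3%, against 18.8% of all genes: ITGA1, ITGA2, ITGA5, ITGA6, ITGAX, ITGB4 and ITGB8 were higher on all 3 BMP9 arrays, and ITGA2B and ITGB2 were lower. Over all genes 1861 were higher without overlap and 1539 lower.

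**Figure D1:**
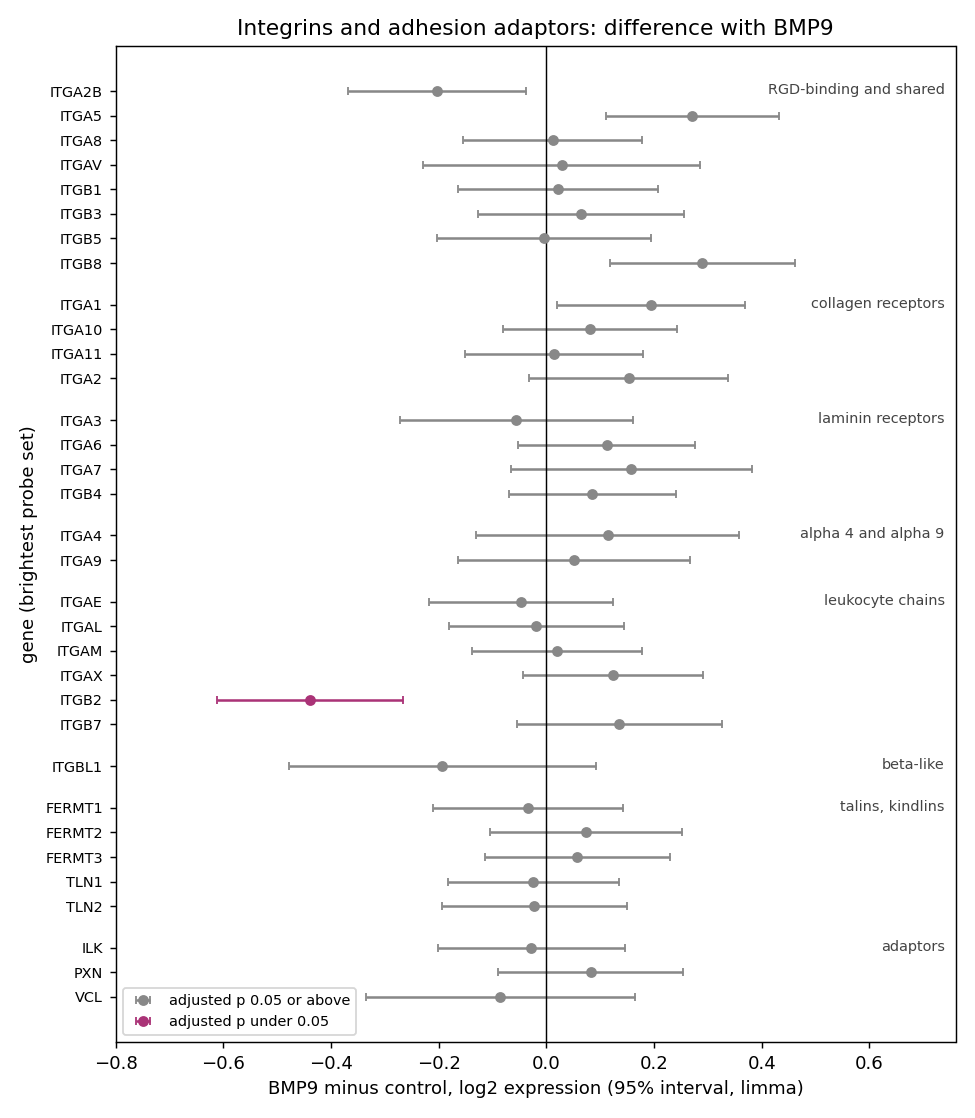
Difference in log2 expression, BMP9 minus control, for the 33 measured integrin and adhesion genes, grouped by what they bind or do; points are limma differences from 3 arrays per group and bars their 95% intervals. ITGB2, in colour, is the only gene with an adjusted p under 0.05, at -0.44, and the other 32 lie between -0.20 and 0.29.

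These counts depended on how the arrays were scaled. Scaling to the hybridisation controls moved the median of all genes to 0.23, and 4843 genes were then called higher and 72 lower in place of 42 and 82. Among the members 12 were then called higher and 0 lower. Scaling to the poly-A controls moved that median to 0.55, with 16893 genes higher and 19 lower, and 31 members higher and 0 lower. Values that follow use the deposited scale and are relative to those shifts.

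Each member probe set was also tested on its own, 110 in all. Of these 0 rose and 1 fell, against 0.436% of the 44988 single-gene probe sets called, and 18.2% had groups that did not overlap, against 17.3%. The probe set that fell belongs to ITGBL1, a secreted protein built of integrin beta-like repeats that lacks the membrane anchor of a true beta chain. On that probe set the control arrays read 5.20, 5.01 and 4.19 and the BMP9 arrays 3.0, 3.35 and 3.12. All BMP9 arrays lay below all control arrays, and the control arrays were more spread, the third of them being lowest. The mean went from 4.80 ± 0.54 to 3.16 ± 0.18 (SD, n = 3 arrays per group), a fall of 3.12-fold, with a log2 difference of -1.64 (SE 0.21, 95% interval -2.11 to -1.17, limma adjusted p = 0.00686 over all probe sets). An exact two-sided permutation test of the same 6 values gave p = 0.1, the smallest that 3 against 3 arrays allow.

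The other 4 probe sets of ITGBL1 were not called. The brightest of them, which stands for the gene in the counts above, read 5.19, 5.20 and 4.88 in control and 5.06, 4.62 and 5.01 with BMP9. These groups overlapped, and the difference was -0.19 (SE 0.13, 95% interval -0.48 to 0.091, limma adjusted p = 0.566). The remaining probe sets differed by -0.03, 0.12 and 0.11, with limma adjusted p from 0.683 to 0.940 over all probe sets, and the probe set at 0.12 carries the same transcript record as the one that fell.

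Inside ITGBL1 the probe set that fell moved apart from the brightest. On each array the probe set that fell was set against the gene's brightest: their difference was 0.0088, -0.19 and -0.69 in control and -2.06, -1.27 and -1.89 with BMP9, so the groups did not overlap. The change in that difference was -1.45 (SE 0.22, limma adjusted p = 0.0285 over 26856 such pairs of probe sets), in a fit added after the data were seen. In that fit 0.302% of all pairs were called, and ITGBL1 gave the only call among the members. The next was ITGB8, at a limma adjusted p of 0.195. An exact two-sided permutation test of the ITGBL1 difference gave p = 0.1, the smallest possible. The probe set was picked for its fall, so this comparison is not independent of that fall.

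**Figure D2:**
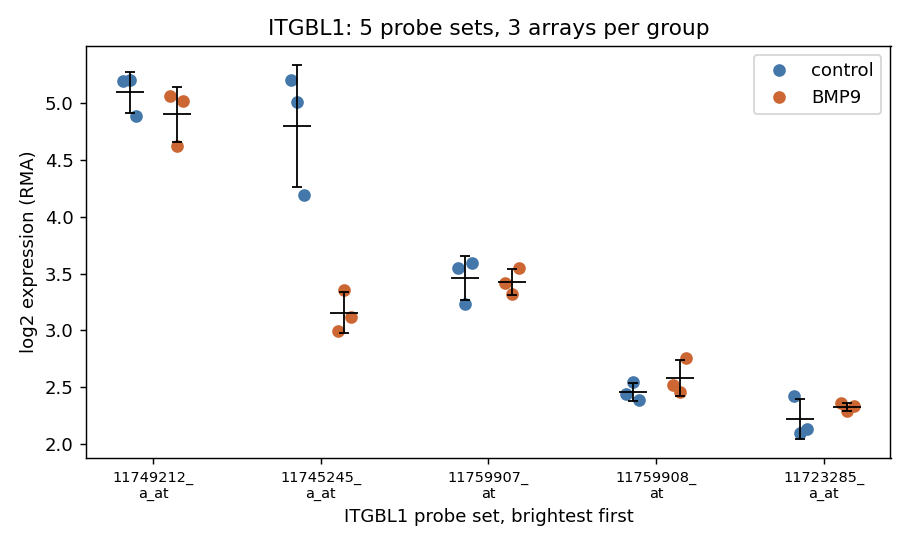
Log2 expression of the 5 ITGBL1 probe sets on each of 3 control and 3 BMP9 arrays, ordered by mean level, with the group mean and SD as bars. The second probe set drops from 4.80 to 3.16 with no overlap between the groups, while the groups overlap on the other 4.

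The stretch before the annotated start of ITGBL1 is shown because 1 of its 5 probe sets had the largest difference among the members' probe sets. That of ITGA5, the fibronectin receptor chain, is shown as 1 of the 7 members that were higher on all BMP9 arrays. Both are the 250 bases upstream of the start in RefSeq (GRCh38.p14), ITGBL1 on the plus strand at chr13:101452425-101452674 and ITGA5 on the minus strand at chr12:54419267-54419516. Capitals mark matches, on either strand, to GGCGCC and GGAGCC, the GC-rich elements known for BMP-activated SMADs, and to CAGAC, a SMAD-binding element.
ITGBL1: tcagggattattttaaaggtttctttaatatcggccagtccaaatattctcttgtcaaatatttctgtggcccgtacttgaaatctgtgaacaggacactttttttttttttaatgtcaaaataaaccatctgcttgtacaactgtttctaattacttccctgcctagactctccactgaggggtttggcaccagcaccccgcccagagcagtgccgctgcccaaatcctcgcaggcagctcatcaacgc
ITGA5: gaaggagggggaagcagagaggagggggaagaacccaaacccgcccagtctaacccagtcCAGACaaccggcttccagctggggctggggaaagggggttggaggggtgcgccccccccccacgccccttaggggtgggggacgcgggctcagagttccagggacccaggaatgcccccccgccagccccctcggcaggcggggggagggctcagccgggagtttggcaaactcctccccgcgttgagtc
The ITGBL1 window is 44% G or C and holds no match to these motifs, and the ITGA5 window is 70% G or C and holds 1 match, to CAGAC. The window of ITGB8, which was higher by 0.29 against 0.27 for ITGA5, is not printed. Unlike the other 2, that window lies inside the gene, at chr7:20330650-20330899 on the plus strand, past the gene's annotated start at 20329766. The ITGB8 window holds 1 match to GGAGCC and 1 to CAGAC. No window was available for ITGB2. Among all 35116 windows of this length 16.4% hold GGCGCC, 30.6% GGAGCC and 38% CAGAC. Among the 32 windows found for 25 of the member genes the shares were 28.1%, 46.9% and 34.4%. A match in such a window describes its letters only.

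Of the RGD-binding chains and the beta chains they pair with, 8 of 9 were measured, 0 were called and the median difference was 0.025. ITGA5, the alpha chain of the classical fibronectin receptor, read 4.91, 4.81 and 4.92 in control and 5.15, 5.12 and 5.18 with BMP9. All BMP9 arrays lay above all control arrays, by 0.27 on average (SE 0.072, 95% interval 0.11 to 0.43), or 1.21-fold, which did not pass adjustment over all genes (limma adjusted p = 0.155). ITGA5 was called at a minimum mean log2 value of 5, where 6744 genes were tested (limma adjusted p = 0.0377). Its control arrays all lay under 5, so it passed that filter only through its BMP9 arrays, and this call does not back the rise. The mean of its 4 probe sets differed by 0.097 (limma adjusted p = 0.541). The other 3 ITGA5 probe sets differed by 0.14, -0.0086 and -0.014 and their groups overlapped.

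ITGB8, a partner of the alpha v chain and an activator of latent TGF-beta, showed a similar size of difference in a dimmer probe set. It went from 3.07 ± 0.072 to 3.36 ± 0.068 (SD, n = 3), with the groups apart and a difference of 0.29 (SE 0.077, 95% interval 0.12 to 0.46, limma adjusted p = 0.153). Its other 3 probe sets differed by 0.041, -0.11 and -0.15, and the groups were apart, with BMP9 lower, at -0.11.

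ITGAV itself, the vitronectin receptor chain, read 3.57, 3.80 and 3.29 in control and 3.63, 3.56 and 3.56 with BMP9. The BMP9 arrays lay inside the control range, with a difference of 0.028 (SE 0.12, limma adjusted p = 0.947). Its 5 probe sets had overlapping groups throughout. The partner chain ITGB3 read 4.49, 4.56 and 4.57 in control and 4.76, 4.55 and 4.49 with BMP9, a difference of 0.064 (95% interval -0.13 to 0.26) with overlapping groups. ITGB5, the other common partner in mesenchymal cells, read 6.31, 6.23 and 6.27 in control and 6.41, 6.10 and 6.29 with BMP9. Its groups overlapped too, and the difference was -0.0047 (95% interval -0.20 to 0.19).

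ITGB1, the beta chain shared by the fibronectin, collagen and most laminin receptors, read 5.83, 5.60 and 5.68 in control and 5.78, 5.74 and 5.66 with BMP9. The groups overlapped, with a difference of 0.021 (SE 0.083, 95% interval -0.16 to 0.21, limma adjusted p = 0.946), and they overlapped on all 5 of its probe sets. ITGA8, the nephronectin receptor chain that marks smooth muscle and stellate cells, differed by 0.012 (95% interval -0.15 to 0.18). ITGA2B, the platelet fibrinogen receptor chain, went from 5.69 ± 0.073 to 5.48 ± 0.033 (SD, n = 3) with the groups apart, a difference of -0.20 (limma adjusted p = 0.292), and 0 of 7 measured platelet markers were called. ITGA2B differed by 0.0087 under hybridisation scaling and 0.33 under poly-A scaling. Another ITGA2B probe set became the brightest without control replicate 1 or without control replicate 2, and the difference was then 0.018 and -0.049. With the first probe set kept it was -0.19 and -0.24.

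**Figure D3:**
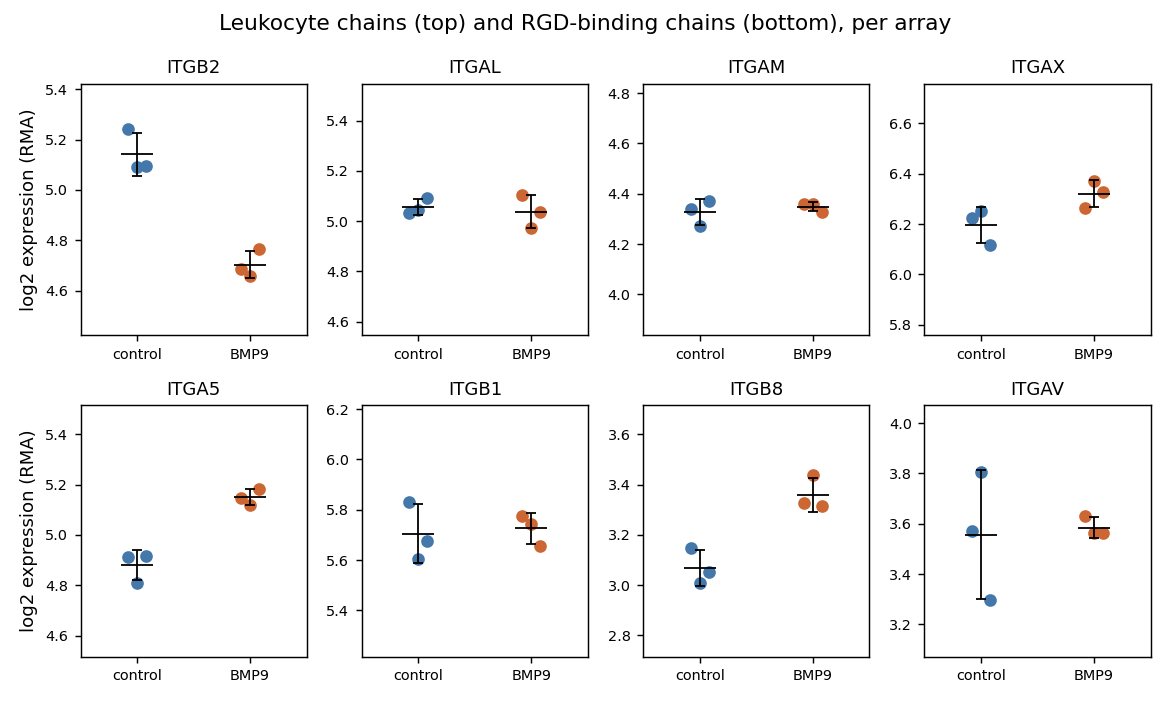
Log2 expression on each of 3 control and 3 BMP9 arrays for 4 leukocyte chains (top) and 4 RGD-binding chains (bottom), with group mean and SD; every panel spans the same height of 1 log2 unit. ITGB2 lies lower and ITGA5 and ITGB8 lie higher on all BMP9 arrays, while ITGB1, ITGAV, ITGAL and ITGAM overlap.

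All 4 collagen receptor alpha chains had a positive difference on their brightest probe set, as had 9915 of all 18132 genes. The median of the 4 was 0.12, and 0 were called. The other probe set of ITGA2 differed by -0.040 and that of ITGA11 by -0.029. ITGA11, the chain for fibrillar collagen that is found on fibroblasts, read 4.51, 4.43 and 4.54 in control and 4.54, 4.44 and 4.54 with BMP9. The groups overlapped almost fully, at a difference of 0.014 (SE 0.074, 95% interval -0.15 to 0.18, limma adjusted p = 0.960). ITGA1 and ITGA2, which pair with ITGB1 to bind collagens, were higher on all BMP9 arrays by 0.19 and 0.15 (limma adjusted p = 0.337 and 0.478). Their control means were 2.19 and 2.86. ITGA10 differed by 0.081, with overlapping groups. Its other probe sets differed by 0.19, with the groups apart (limma adjusted p = 0.365 over all probe sets), and by -0.094, with overlap. The collagen gene COL3A1, a ligand of these receptors, differed by -1.29 in the same arrays.

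The 4 laminin receptor chains had a median difference of 0.099 and 0 were called. ITGA6 and ITGB4, which pair in hemidesmosomes, were higher on all BMP9 arrays by 0.11 and 0.086 (limma adjusted p = 0.563 and 0.652). The other ITGA6 probe sets differed by -0.011 and -0.079, with overlapping groups. Of 8 ITGB4 probe sets 6 differed upward and 2 downward. ITGA7, the chain typical of muscle, differed by 0.16 and ITGA3 by -0.055, both with overlapping groups. ITGA4, the VCAM1 receptor chain, differed by 0.11 and ITGA9, a tenascin receptor chain, by 0.052, again with overlap.

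Of the 6 chains typical of leukocytes 1 fell, ITGB2, the common beta chain of the leukocyte adhesion receptors, and the median of the 6 was 0.0011. The only ITGB2 probe set read 5.24, 5.09 and 5.09 in control and 4.69, 4.66 and 4.76 with BMP9. All BMP9 arrays lay below all control arrays. The mean went from 5.14 ± 0.086 to 4.70 ± 0.054 (SD, n = 3), 1.36-fold lower, at a difference of -0.44 (SE 0.077, 95% interval -0.61 to -0.27, limma adjusted p = 0.0360). The call did not hold when any 1 of the 6 arrays was left out (limma adjusted p 0.0820 to 0.156), when all probe sets were tested together (0.051), with a replicate block (0.0794) or under hybridisation scaling (0.0864), and the difference was 0.093 under poly-A scaling.

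The alpha chains that pair with ITGB2 did not pass the test. ITGAL differed by -0.018, ITGAM by 0.020 and ITGAX by 0.12 (limma adjusted p = 0.946, 0.939 and 0.527), with only ITGAX apart. A second ITGAM probe set, singled out after its values were seen, read 2.99, 3.40 and 3.41 in control and 3.79, 3.55 and 3.78 with BMP9. The groups did not overlap, and the difference of 0.44 ran opposite to that of ITGB2 (limma adjusted p = 0.202 over all probe sets). ITGAE, which binds E-cadherin, differed by -0.048 and its partner ITGB7 by 0.14, with overlapping groups.

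The leukocyte marker list gave no call beside ITGB2. Of 12 listed, 11 were measured and 0 were called, and their mean log2 value per array was 4.61 to 4.66 in control and 4.63 to 4.69 with BMP9. PTPRC, the pan-leukocyte antigen, was at 2.19 in control and 2.37 after BMP9, and LYZ was at 2.03 and 2.05. These were the dimmest of the measured markers. The brightest, CD68, was at 6.99 in control and 6.84 after BMP9, and CD79A was at 6.24 and 6.21. Endothelial, cholangiocyte and hepatocyte marker lists also gave 0 calls among 10, 9 and 9 measured genes. With 0.684% of all genes called, 0 calls in marker lists this short tell little, the stellate cell and platelet lists included.

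On the brightest probe set of each, 0 of 5 activators were called and in none were the groups apart. Over all genes the shares were 0.684% called and 18.8% apart, so these counts over 5 genes tell little. The median difference of the 5 was -0.022. TLN1, the main talin of most tissues, read 6.95, 6.90 and 6.91 in control and 6.96, 6.86 and 6.87 with BMP9. FERMT2, the kindlin of mesenchymal cells, read 4.78, 4.63 and 4.73 in control and 4.73, 4.89 and 4.74 with BMP9. Both pairs of groups overlapped, at differences of -0.025 (95% interval -0.18 to 0.13) and 0.074 (95% interval -0.10 to 0.25). Of 4 FERMT2 probe sets 2 differed upward and 2 downward. On 1 of the latter the groups were apart, at -0.16 (limma adjusted p = 0.482 over all probe sets). TLN2 differed by -0.022, the epithelial kindlin FERMT1 by -0.033 and the blood cell kindlin FERMT3 by 0.058.

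The 3 adaptors gave 0 calls and a median difference of -0.027. VCL, the vinculin gene, read 6.32, 6.30 and 6.59 in control and 6.43, 6.11 and 6.41 with BMP9, with overlap and a difference of -0.085 (95% interval -0.34 to 0.16). ILK, the integrin-linked kinase gene, read 7.0, 6.83 and 6.82 in control and 6.88, 6.85 and 6.83 with BMP9, with overlap and a difference of -0.027 (95% interval -0.20 to 0.15). PXN, the paxillin gene, read 7.04, 7.13 and 7.0 in control and 7.06, 7.17 and 7.20 with BMP9, with overlap and a difference of 0.082 (95% interval -0.089 to 0.25). PXN has 10 probe sets, the most of any member, and 7 of them differed upward and 3 downward. The highest of them differed by 0.27 with its groups apart (limma adjusted p = 0.278 over all probe sets). Of 4 VCL probe sets 3 differed downward and 1 upward. The latter differed by 0.15 with its groups apart (limma adjusted p = 0.610 over all probe sets).

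**Figure D4:**
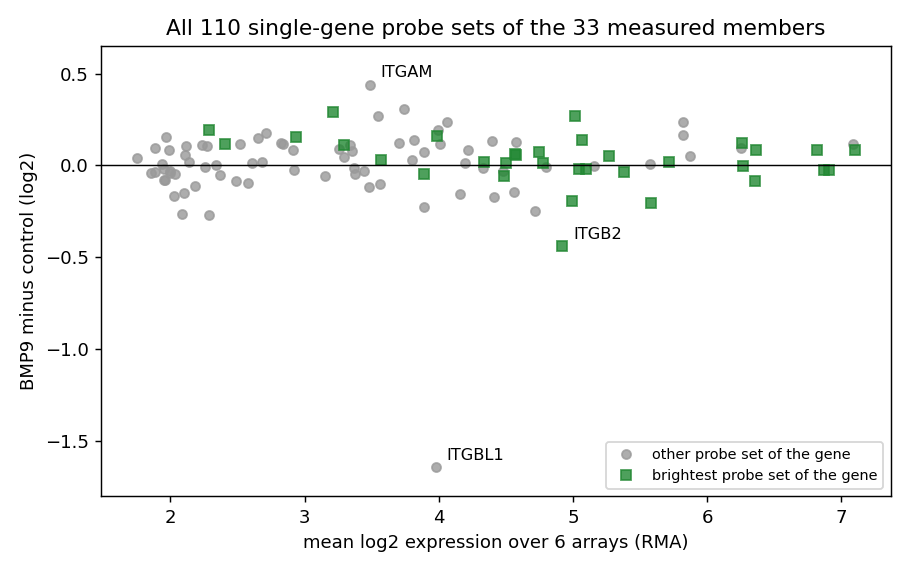
Log2 difference, BMP9 minus control, against mean log2 expression for all 110 single-gene probe sets of the 33 measured integrin and adhesion genes; squares are the brightest probe set of each gene. The ITGBL1 probe set at -1.64 stands alone beyond 0.5 in either direction, and ITGB2 at -0.44 and an ITGAM probe set at 0.44 come next.

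Over the 110 probe sets 64 differences were positive and 46 negative, with a median of 0.020. In 20 the groups were apart, 15 higher and 5 lower, beside 4079 higher and 3696 lower among all single-gene probe sets. Of the 25 members with several probe sets, ITGBL1 was the only 1 with a probe set called when all 44988 were tested together.

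Genes that act beside the members were taken from a list of 50 further focal adhesion and actin-linker genes, of which 46 were measured. Of these 0 rose and 1 fell, or 2.17% called against 0.684% of all genes. Among them 22 differences were positive and 24 negative, and the median was -0.0018. The list was chosen with earlier results of these data known, so its share of calls does not test such genes as a class. The gene that fell was RAP1A, a small GTPase that recruits talin to integrins. It read 9.32, 9.31 and 9.18 in control and 8.83, 8.87 and 8.72 with BMP9, without overlap, at a difference of -0.47 (SE 0.079, limma adjusted p = 0.0272). That call did not hold without any 1 of the 6 arrays (limma adjusted p 0.053 to 0.14), with the mean of its probe sets (0.221) or under hybridisation scaling (0.071), and the difference was 0.065 under poly-A scaling. The next smallest p-values were those of the tensin gene TNS2 at -0.44, the actin cross-linker ACTN4 at 0.33 and the caveolin gene CAV1 at -0.26 (limma adjusted p = 0.061, 0.101 and 0.191).

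Of 32 integrin ligand genes 31 were measured, 1 rose and 2 fell, or 9.68% called against 0.684% of all genes. Among them 16 differences were positive and 15 negative, and the median was 0.0059. This list, too, was chosen with earlier results of these data known, so its share of calls does not test ligands as a class. The matricellular gene CCN1, whose product binds alpha v integrins, rose from 7.22 ± 0.18 to 8.23 ± 0.12 (SD, n = 3, limma adjusted p = 0.00159). COL3A1, a ligand of the collagen receptors, fell from 7.73 ± 0.057 to 6.44 ± 0.063 (limma adjusted p = 2.35e-05). Both were called under all 16 alternatives, with differences of 0.65 to 1.54 for CCN1 and -1.32 to -0.76 for COL3A1. The laminin chain LAMA4 fell from 6.78 ± 0.028 to 6.25 ± 0.14 (limma adjusted p = 0.0216). The LAMA4 call did not hold without any 1 of 5 of the arrays (limma adjusted p 0.0726 to 0.115) or with the mean of its probe sets (0.367), and its difference was 0.0030 under poly-A scaling. The next was the laminin chain LAMC1 at -0.44 (limma adjusted p = 0.058). The receptor chains for these ligands, ITGAV, ITGB3 and ITGB5 for CCN1, ITGA1, ITGA2 and ITGA11 for COL3A1 and ITGA3, ITGA6 and ITGA7 for LAMA4, differed by -0.055 to 0.19 and were not called.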

How the data were processed

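The authors deposited log2 expression per probe set, computed by RMA according to the submitters' processing notes. RMA's version is not given in the sources used here, and the range of the values was used to infer the log base. Per the labels' protocols, RNA was labelled with biotin through a 3′ amplification kit. RMA's quantile step largely removes a change shared by most transcripts. Of 49395 probe sets, 102 array controls and 1832 with several gene symbols were left out. The highest-mean probe set of each gene, and all 44988 single-gene probe sets, were fitted in limma 3.58.1 (lmFit, eBayes, R 4.3.3; residual 4 and prior 6.13 degrees of freedom, median SE 0.0875), with no covariate and no filter on dim probe sets. The scripts were tested on simulated data. The number of arrays limits the precision. The members and lists were chosen with earlier results of these data known. Values on every array are given for members called on any probe set, for members with groups apart by at least 0.3, and for 11 core genes. Gene names came from the platform annotation. Alternatives were the replicate block, scalings, filters on low values, probe set choices, a trended prior and leaving out each array; Simes' combination over probe sets, the comparison of probe sets within a gene and leaving out arrays with the probe set kept were added after seeing the data.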

Additional observations from a re-analysis of the deposited data

How the results depend on the processing

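The fall of the ITGBL1 probe set was called under all 13 alternatives that could be fitted, at differences of -1.95 to -1.11 (limma adjusted p 6.16e-08 to 0.0475). Filters at a minimum of 5 and 7 dropped that probe set. The mean of the 5 ITGBL1 probe sets differed by -0.33 and was not called. Under poly-A scaling the brightest of them was called higher, at 0.34 (limma adjusted p = 0.0482). The fall of ITGB2 was called in 5 of 14. Members called, 1 on the deposited scale, came to 12 with hybridisation scaling, 31 with poly-A scaling and 2 with Simes' method (ITGB2 and ITGBL1). They came to 0 with the replicate block, 0 at a minimum of 7 (which left 1 member) and 0 to 0 with an array left out. At a minimum of 5, which left 16 members and dropped ITGB2, the 1 called was ITGA5. That gene passed this filter only through its BMP9 arrays. Member probe sets called, 1 on the deposited scale, came to 2 with quantile normalisation, 2 with median centring, 2 with a trended prior, 31 and 103 with hybridisation and poly-A scaling and 0 at a minimum of 7. All genes called, 124 on the deposited scale, came to 4915 and 16912 with those scalings, 267 and 247 at a minimum of 5 and 7, 285 with a trended prior and 53 to 75 with an array left out; with the probe sets of all 6 arrays kept, they came to 58, 78 and 66 without control replicate 1, 2 and 3 and 67, 54 and 59 without BMP9 replicate 1, 2 and 3, and members called to 0 each time. Other focal adhesion genes called, 1 on the deposited scale, came to 12 and 41 with those scalings, 3 and 4 at a minimum of 5 and 7, 3 with a trended prior, 0 with the mean of probe sets and 0 to 0 with an array left out. Ligands called, 3 on the deposited scale, came to 10 and 24 with those scalings and 5 at a minimum of 5. Poly-A scaling turned negative differences to 0.33 for ITGA2B, 0.48 for ITGA3, 0.48 for ITGAE, 0.51 for ITGAL, 0.093 for ITGB2, 0.53 for ITGB5, 0.34 for the brightest ITGBL1 probe set, 0.51 for TLN1, 0.51 for TLN2, 0.50 for FERMT1, 0.45 for VCL, 0.50 for ILK, 0.065 for RAP1A, 0.091 for TNS2, 0.27 for CAV1, 0.0030 for LAMA4 and 0.089 for LAMC1. Deviations from the group means were hardly correlated between same-numbered arrays (r 0.0038, 0.046 and -0.021), which cannot exclude that the samples were paired. With the replicate block 94 genes were called. The cause of these shifts was not tested.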
